A study of Mus musculus with 12 samples.

Results

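The 35 genes described here encode the machinery that takes up glucose, breaks it down to lactate and ships the lactate out, together with the hypoxia factor and several genes it is known to drive. They were listed by symbol and matched to the Ensembl identifiers of the deposited counts, where they make up 35 of 53801 genes. Every one of the 35 passed the filter on low counts, which left 15828 genes tested. Poly(A) RNA came from the mouse myoblast line C2C12, whose cells can fuse into muscle fibres, in 4 groups of 3 libraries. Control cells (Ctrl) and cells with Cebpg knocked down (Sh2) were each given either the solvent DMSO or thapsigargin (Thap), and all 12 libraries were taken at 6 h. Thapsigargin blocks the pump that fills the endoplasmic reticulum with calcium and thereby causes endoplasmic reticulum stress. Cebpg encodes C/EBP gamma, a bZIP transcription factor that pairs with ATF4, a main regulator of the stress response. The knockdown carries 1 label only, and the sources used here do not state what the control cells received in its place, so the knockdown and any other lasting difference between the cell populations cannot be told apart. The source field names C2C12, while the growth protocol names HeLa, a human line. No label says that replicates are separate cultures, so the p-values below measure the spread between libraries and nothing wider.

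Glycolysis splits glucose into pyruvate. Transporters such as GLUT1 bring glucose in, hexokinase traps it as a phosphate, and phosphofructokinase is the main control point, activated by fructose 2,6-bisphosphate, which the PFKFB enzymes make and remove. Lactate dehydrogenase turns pyruvate into lactate, which monocarboxylate transporters carry across the cell membrane. Pyruvate dehydrogenase kinases hold pyruvate back from the citric acid cycle. Hypoxia-inducible factor 1 (HIF-1) switches on many of these genes when oxygen is low; prolyl hydroxylases of the EGLN family mark its alpha subunit for destruction when oxygen is present. Skeletal muscle uses its own forms of several of the enzymes, among them enolase 3, phosphoglycerate mutase 2 and muscle phosphofructokinase.

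Libraries held 29.42 to 47.72 M reads assigned to genes. Levels are given as scaled CPM, which are reads per M after TMM scaling to the 15828 genes tested. Values per kilobase divide these by the merged length of all annotated exons of a gene. That length can exceed the expressed transcript, so levels and shares per kilobase compared between genes depend on the annotation. Changes are log2 fold changes with an approximate SE, tested with edgeR's quasi-likelihood test and adjusted by Benjamini-Hochberg over all genes tested, with a call under 0.05. Bulk RNA was measured, so fewer cells of a type and less RNA per cell cannot be told apart. Cebpg (51.8, 51.5 and 60.6 scaled CPM in control DMSO, 211, 219 and 216 in control thapsigargin) was at 4.63, 3.74 and 5.18 in knockdown DMSO and 6.12, 5.58 and 5.29 in knockdown thapsigargin. The 6 myoblast markers summed to 2378 to 2614 scaled CPM in control DMSO, 1959 to 2033 in control thapsigargin, 1971 to 2099 in knockdown DMSO and 1896 to 1989.9 in knockdown thapsigargin. Single ones differed in direction: Des had a log2 change of -0.63 and Chrna1 of 0.47 with the knockdown in DMSO. With thapsigargin in control cells Myf5 rose (2.03) and the other 5 fell, where 37.0% of all genes tested fell. Those falls ran from -0.17 in Chrna1 to -0.6 in Des. Of the markers of other cells, the 5 endothelial ones summed to 4.2 to 5.12 in control DMSO, 27.5 to 32.3 in control thapsigargin, 5.9 to 6.95 in knockdown DMSO and 18.4 to 21.1 in knockdown thapsigargin, mostly from Tek. The 5 epithelial ones summed to 0.318 to 0.43, 2.99 to 3.57, 1.09 to 1.13 and 7.2 to 8.5 in the same order. Leukocyte markers summed to 4.86 to 5.86, 3.4 to 3.86, 5.66 to 8.58 and 4.35 to 5.7, and adipocyte markers to at most 0.309. The endothelial and epithelial sums moved with thapsigargin and with the knockdown, without overlap. The myoblast sums moved with thapsigargin in control cells and with the knockdown in DMSO, and overlapped otherwise. Leukocyte sums moved with thapsigargin in control cells and with the knockdown under thapsigargin, and overlapped otherwise. The part of these markers in the results below was not tested.

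Thapsigargin lowered most of the enzymes of glycolysis in both cell populations, while in control cells it raised the genes for hexokinase 2, the lactate transporter MCT1, the prolyl hydroxylase EGLN3, the hypoxia factor subunit HIF-1 alpha and the growth factor VEGFA. In knockdown cells Slc16a1 and Vegfa rose less, and Hif1a did not pass the test. Egln3 and the glucose transporter gene Slc2a1 fell. Hk2 fell slightly, a call lost without scaling beyond the total count. In control cells 9 of the 35 members rose with thapsigargin and 23 fell, where 74.7% of all genes tested were called, 37.7% up and 37.0% down. The median log2 change was -0.62 over the members and 0.0 over all genes tested. In knockdown cells 8 members rose and 25 fell, where 69.8% of all genes were called, 35.4% up and 34.4% down, with a median of -0.59 against 0.0. The share of members that fell, 65.7% in control cells and 71.4% in knockdown cells, stood above the share over all genes. Reads of the 19 genes from hexokinase to lactate dehydrogenase made up 1.21% ± 0.0482 (SD, n = 3) of gene reads in control DMSO and 0.762% ± 0.00917 in control thapsigargin. In knockdown cells the share was 1.27% ± 0.058 in DMSO and 0.877% ± 0.0144 with thapsigargin.

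**Figure D1:**
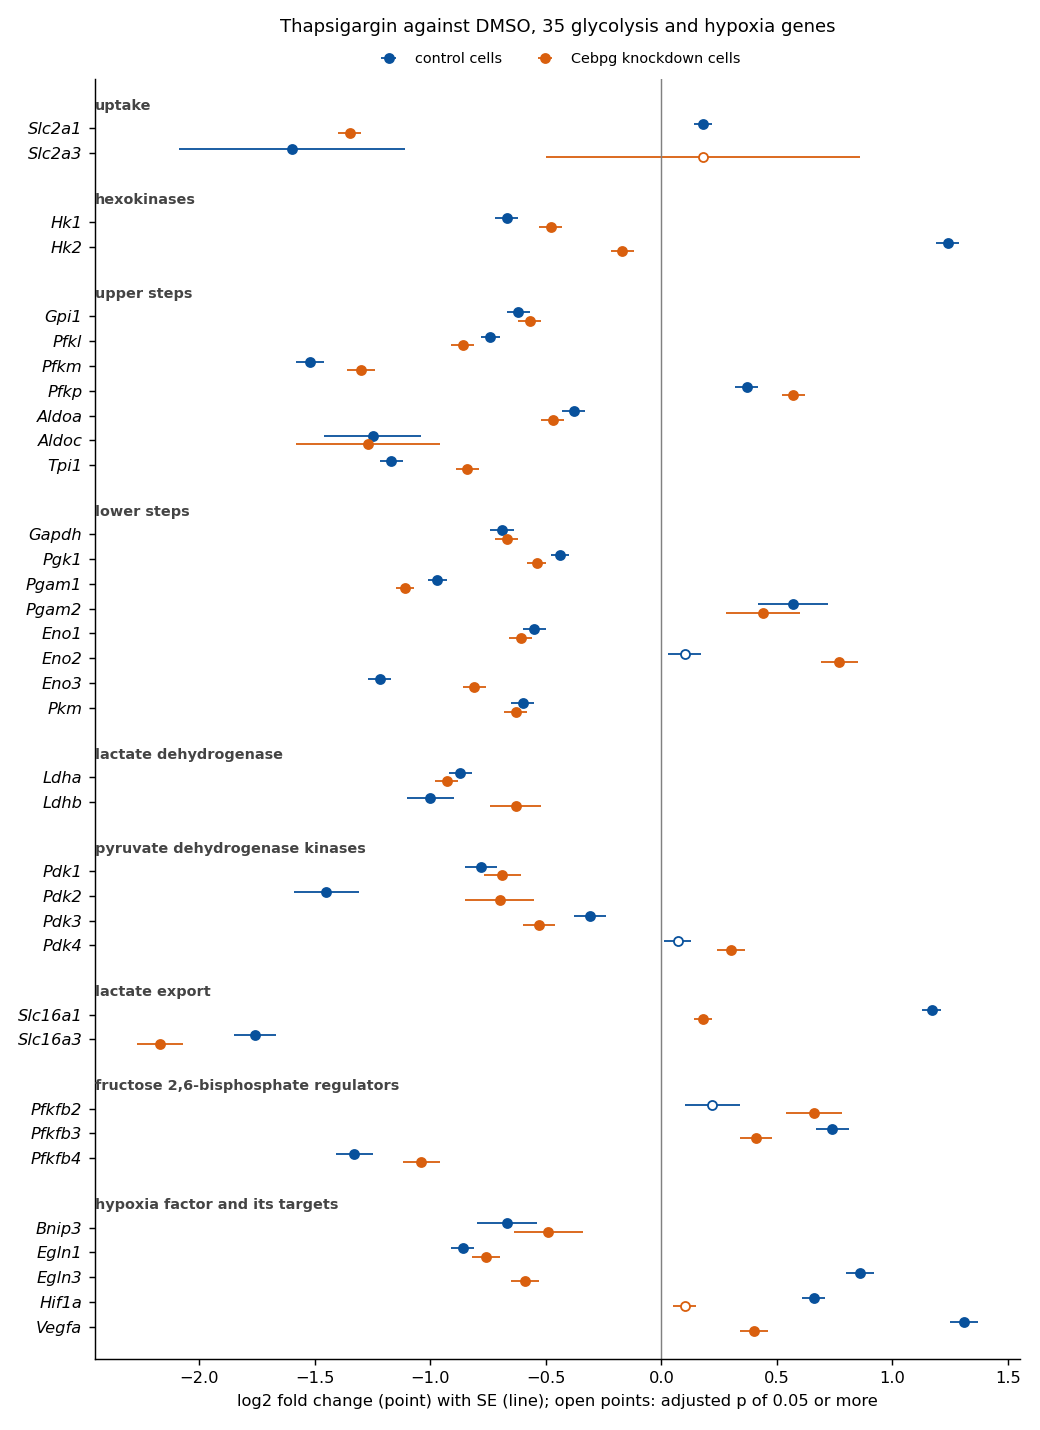
Log2 change with thapsigargin (points) and its SE (lines) for each of the 35 genes, grouped by role, in control and in knockdown cells; open points did not pass the threshold. Most enzymes lie left of 0 in both populations, while Hk2, Slc16a1, Egln3, Hif1a and Vegfa lie right of 0 in control cells and further left in knockdown cells.

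The difference of the 2 thapsigargin effects, the effect in knockdown cells minus that in control cells, was tested gene by gene. Of the 35 members 10 had a more positive and 8 a more negative effect in knockdown cells, where 35.4% of all genes tested were called, 17.7% in either direction. These are 28.6% and 22.9% of the members. The negative differences reached -1.53 in Slc2a1, -1.45 in Egln3, -1.41 in Hk2 and -0.99 in Slc16a1, and the most positive called one was 0.75 in Pdk2. Without control thapsigargin replicate 2, 6 members instead of 10 had a more positive effect, and 4 did at an adjusted p under 0.01. For the knockdown itself, in DMSO 9 members rose and 17 fell, where 51.5% of all genes were called, 25.0% up and 26.5% down. Under thapsigargin 9 rose and 20 fell, where 56.9% were called, 28.5% up and 28.4% down. Median log2 changes of the members were -0.14 and -0.17, where all genes had 0.0 and 0.02. Without scaling beyond the total count, 12 members instead of 20 fell with the knockdown under thapsigargin. That setting moves the median of all genes by 0.13 in this comparison, by 0.12 for thapsigargin in knockdown cells and by 0.16 for the difference. It also moves the share of called genes that rose from 50.1% to 66.6%, from 50.8% to 60.5% and from 49.9% to 75.6%. The comparisons share libraries, so their values stand side by side and are not independent.

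**Figure D2:**
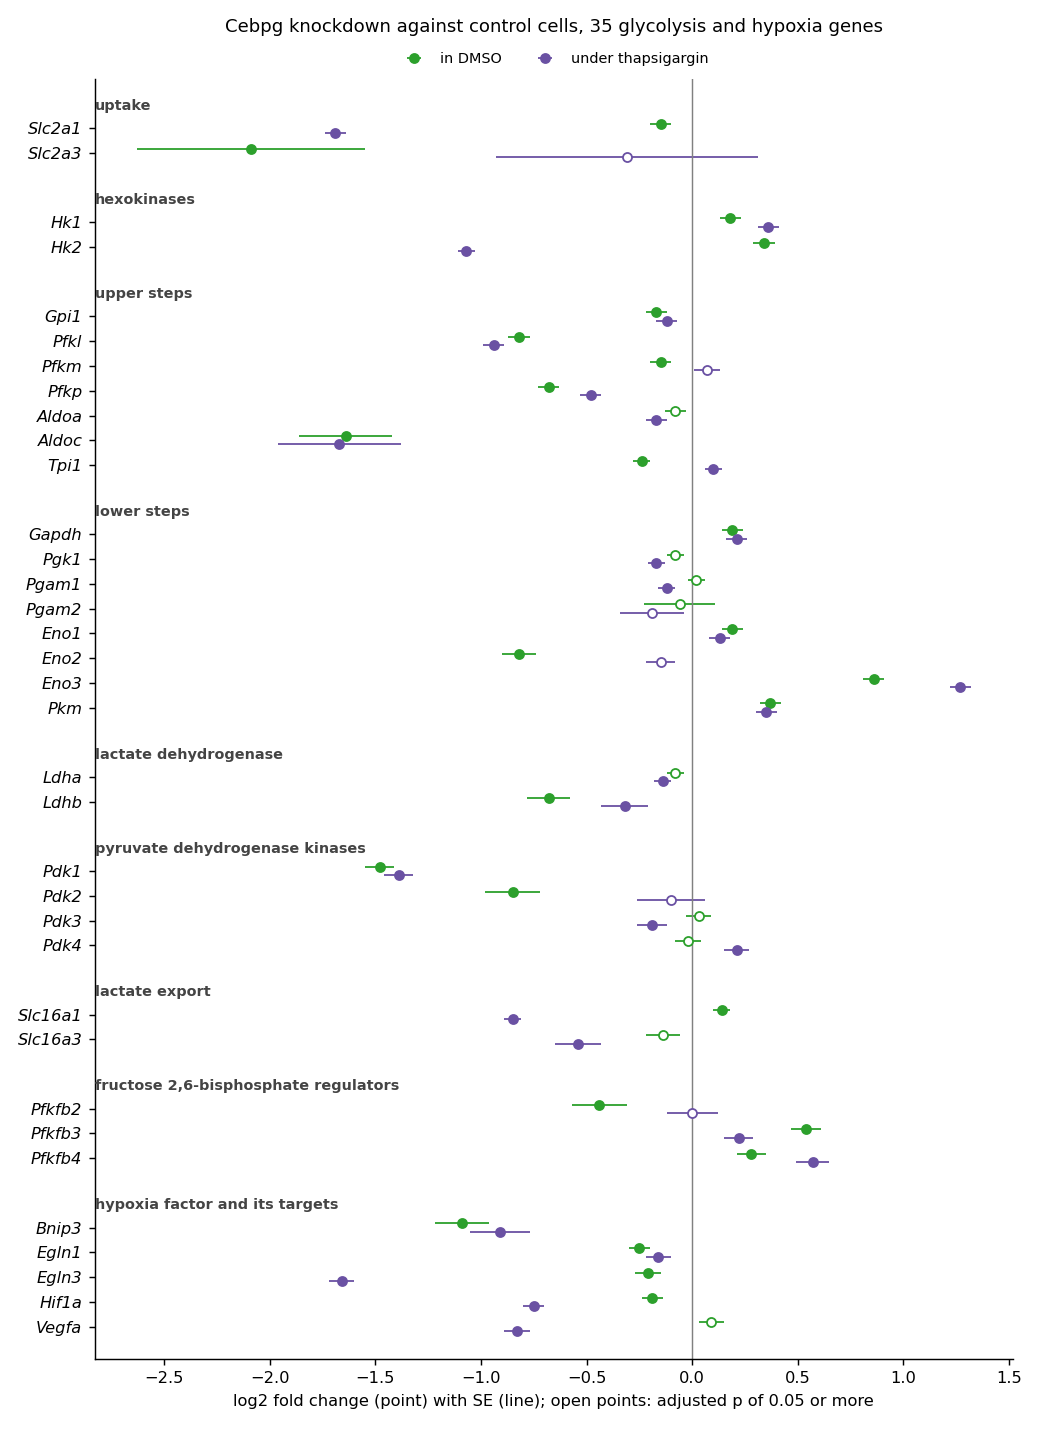
Log2 change with Cebpg knockdown (points) and its SE (lines) for each of the 35 genes, in DMSO and under thapsigargin; open points did not pass the threshold. Slc2a1, Hk2, Slc16a1, Egln3, Hif1a and Vegfa are 0.34 or less from 0 in DMSO and lie at -0.75 or lower under thapsigargin, while Pfkl, Pdk1 and Bnip3 are low in both.

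The hypoxia factor binds the core ACGTG or GCGTG in the DNA of its targets, so the 250 bases before the annotated start were searched for both on either strand. RefSeq promoters on GRCm38.p6 were matched for 34 of the 35 genes. The sequences below are those of the 4 genes with the most negative differences and, for contrast, the first promoter of Ldha, whose difference did not pass. Capitals mark ACGTG or GCGTG on the printed strand or, as CACGT or CACGC, on the opposite one; the palindrome CACGTG counts on both strands.
Slc2a1, chr4:119108495-119108744, plus strand: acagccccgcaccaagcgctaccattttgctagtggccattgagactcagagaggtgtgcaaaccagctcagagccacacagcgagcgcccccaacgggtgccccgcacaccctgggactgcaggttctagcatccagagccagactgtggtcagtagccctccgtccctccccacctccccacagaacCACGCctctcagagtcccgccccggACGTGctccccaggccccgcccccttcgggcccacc
Egln3, chr12:54203875-54204124, minus strand: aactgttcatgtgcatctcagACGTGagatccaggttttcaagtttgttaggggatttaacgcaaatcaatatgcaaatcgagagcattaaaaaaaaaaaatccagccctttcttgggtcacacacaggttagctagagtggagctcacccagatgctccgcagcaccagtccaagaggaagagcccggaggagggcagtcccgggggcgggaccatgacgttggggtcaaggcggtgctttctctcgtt
Hk2, chr6:82774455-82774704, minus strand: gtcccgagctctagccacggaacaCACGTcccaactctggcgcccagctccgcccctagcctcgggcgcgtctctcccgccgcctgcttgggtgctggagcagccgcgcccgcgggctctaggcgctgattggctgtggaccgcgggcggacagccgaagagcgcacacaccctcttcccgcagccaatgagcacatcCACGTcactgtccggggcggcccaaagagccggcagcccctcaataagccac
Slc16a1, chr3:104638414-104638663, plus strand: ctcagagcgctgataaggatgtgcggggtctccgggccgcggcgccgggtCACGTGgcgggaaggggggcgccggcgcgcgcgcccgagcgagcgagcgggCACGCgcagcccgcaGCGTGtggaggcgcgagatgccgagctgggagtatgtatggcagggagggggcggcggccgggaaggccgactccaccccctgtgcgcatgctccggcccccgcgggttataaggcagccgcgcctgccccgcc
Ldha, chr7:46845554-46845803, plus strand: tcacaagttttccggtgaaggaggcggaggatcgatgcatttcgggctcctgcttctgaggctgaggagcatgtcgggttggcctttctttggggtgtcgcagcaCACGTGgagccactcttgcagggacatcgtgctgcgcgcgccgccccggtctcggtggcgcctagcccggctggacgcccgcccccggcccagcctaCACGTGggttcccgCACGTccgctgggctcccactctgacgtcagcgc
Each of the 5 windows holds ACGTG at least once, and the Ldha window holds it 5 times by this count. Counted on the first promoter listed for each gene, 26 of the 34 (76.5%) had ACGTG or GCGTG, against 38.6% of the first promoters of all 27025 genes in the table. ACGTG alone was in 16 (47.1%, against 16.6%) and GCGTG in 17 (50.0%, against 28.2%). The windows of the members are also richer in G and C, with a median of 60.8% against 52.0%. After the values were seen, the members were divided by their difference of effects. ACGTG was in 7 of the 8 with a negative difference, 3 of the 10 with a positive one and 6 of the 16 not called that had a promoter. GCGTG was in 2 of the 8, 5 of the 10 and 10 of the 16, and either core in 7, 7 and 12 of them. These divisions were made on these data, have no share over all genes beside them and were not tested. Some of the calls behind them were lost under alternatives, as listed further below. No link to a site can be read from them. Promoters listed after the first added ACGTG in Aldoa and Pkm, both not called, and in Vegfa, with a negative difference. They added GCGTG in Hk1, Pfkm, Ldha, Pfkfb3 and Vegfa. The CEBP-ATF response element, searched as TGATGNAA on either strand, was in none of the 34 and in 3.53% of all promoters. At so low a share, finding none among 34 says nothing about the members. These are matches of letters in a short window. A match does not show a bound site, and the lack of one does not show that a site is missing.

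Of the 2 glucose transporter genes among the members, only Slc2a1 was well expressed, and uptake itself was not measured. Slc2a1 (ENSMUSG00000028645, chromosome 4, 119108711 to 119137983, plus strand) encodes GLUT1, the basal glucose transporter of most cells. Its level was 143, 148 and 139.6 in control DMSO, 161, 155 and 172 in control thapsigargin, 130.3, 133 and 124 in knockdown DMSO and 50.5, 50.8 and 50.5 in knockdown thapsigargin (scaled CPM). The knockdown thapsigargin libraries stood alone, at 50.8 or below where no other library was under 124. Slc2a1 fell with thapsigargin in knockdown cells (-1.35, SE 0.05, adjusted p = 3.41e-22) and rose a little in control cells (0.18, SE 0.04, adjusted p = 0.000466). The difference was -1.53, SE 0.07, adjusted p = 1.31e-18. The knockdown lowered it slightly in DMSO (-0.15, SE 0.05, adjusted p = 0.0054) and strongly under thapsigargin (-1.69, SE 0.05, adjusted p = 2.36e-24). Slc2a3, the gene for the high-affinity transporter GLUT3, was close to absent, at 0.466, 0.602 and 0.896 in control DMSO, 0.0643, 0.152 and 0.422 in control thapsigargin, 0.129, 0.265 and 0.0579 in knockdown DMSO and 0.294, 0.0973 and 0.118 in knockdown thapsigargin. It passed the filter on low counts through control DMSO alone, the group where it is highest, on 68 reads against 24, 15 and 17 in the others. A fall from that group was thus favoured by the filter, and its calls, which are among the counts above, support nothing. Per kilobase of exon, Slc2a3 made up 0.0558% to 0.221% of the pair in the group means. Outside the members, the transporter gene Slc2a6 averaged 1.91 scaled CPM in control DMSO and 21.8 in control thapsigargin. In knockdown cells it averaged 1.08 in DMSO and 15.8 with thapsigargin.

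The hexokinases, which trap glucose in the cell, went opposite ways in control cells. Hk2 (ENSMUSG00000000628, chromosome 6, 82725025 to 82774454, minus strand) encodes the inducible hexokinase of muscle, which docks on the mitochondrion, and Hk1 (ENSMUSG00000037012, chromosome 10, 62268855 to 62379908, minus strand) the more widely expressed one. Hk2 was at 106, 104 and 107 in control DMSO, 249, 243 and 255 in control thapsigargin, 130.1, 133 and 137 in knockdown DMSO and 126, 114 and 116 in knockdown thapsigargin (scaled CPM). Each control thapsigargin library was above every library of the other groups, whose values ran from 104 to 137. Thapsigargin raised Hk2 in control cells (1.24, SE 0.05, adjusted p = 3.65e-22). Knockdown cells showed a small fall instead (-0.17, SE 0.05, adjusted p = 0.00132), a call that was not made without scaling beyond the total count (-0.05, adjusted p = 0.34). The difference of the effects was -1.41, SE 0.06, adjusted p = 5.87e-18. The knockdown raised Hk2 in DMSO (0.34, SE 0.05, adjusted p = 1.51e-07) and lowered it under thapsigargin (-1.07, SE 0.04, adjusted p = 6.69e-20).

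Hk1 was at 217, 232 and 218 in control DMSO, 133, 135 and 151 in control thapsigargin, 245, 255 and 253 in knockdown DMSO and 184, 177 and 179 in knockdown thapsigargin. It fell with thapsigargin in control cells (-0.67, SE 0.05, adjusted p = 1.46e-14) and in knockdown cells (-0.48, SE 0.05, adjusted p = 6.13e-11), with no overlap between DMSO and thapsigargin libraries of either population. The small difference of those effects (0.19, SE 0.07, adjusted p = 0.0249) did not hold when leaving out control DMSO replicate 2 (adjusted p = 0.128), control thapsigargin replicate 1 (0.0994) or 2 (0.0867), knockdown DMSO replicate 1 (0.076) or knockdown thapsigargin replicate 1 (0.0634). Per kilobase, Hk2 made up 40.5% ± 1.28 (SD, n = 3) of the pair in control DMSO and 71.8% ± 1.08 in control thapsigargin. The corresponding shares in knockdown cells were 43.2% ± 0.544 and 48.5% ± 0.868. By this measure Hk2 was the larger part of the hexokinase message in control thapsigargin libraries and the smaller part in all others. The pair summed to 43.7, 58.1, 51.8 and 41.0 reads per kilobase per M in control DMSO, control thapsigargin, knockdown DMSO and knockdown thapsigargin.

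The lactate transporter genes also went opposite ways with thapsigargin. Slc16a1 (ENSMUSG00000032902, chromosome 3, 104638668 to 104658462, plus strand) encodes MCT1, a widely expressed lactate and pyruvate carrier, and Slc16a3 (ENSMUSG00000025161, chromosome 11, 120948480 to 120960868, plus strand) encodes MCT4, the lactate exporter typical of glycolytic muscle fibres and a known hypoxia target. Slc16a1 was at 153, 151 and 148 in control DMSO, 342, 339 and 335 in control thapsigargin, 171, 162 and 165 in knockdown DMSO and 192, 189 and 183 in knockdown thapsigargin (scaled CPM). The control thapsigargin libraries stood far above the rest, and all others lay between 148 and 192. Slc16a1 rose with thapsigargin in control cells (1.17, SE 0.04, adjusted p = 2.12e-22) and much less in knockdown cells (0.18, SE 0.04, adjusted p = 0.000276), with a difference of -0.99, SE 0.06, adjusted p = 6.04e-15. The knockdown lowered it under thapsigargin (-0.85, SE 0.04, adjusted p = 3.41e-18). Its rise in DMSO (0.14, SE 0.04, adjusted p = 0.00631) did not hold when leaving out knockdown DMSO replicate 1 (0.11, adjusted p = 0.0524).

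Slc16a3 was at 22.7, 25.8 and 22 in control DMSO, 6.18, 6.81 and 7.71 in control thapsigargin, 21.4, 23.4 and 19.4 in knockdown DMSO and 4.91, 4.38 and 4.91 in knockdown thapsigargin. Both thapsigargin groups lay well below both DMSO groups. Slc16a3 had the most negative log2 change with thapsigargin among the 35 in either population, -1.76, SE 0.09, adjusted p = 3.83e-18 in control cells and -2.17, SE 0.1, adjusted p = 2.74e-19 in knockdown cells. It also fell with the knockdown under thapsigargin (-0.54, SE 0.11, adjusted p = 8.09e-05), while the change in DMSO did not pass (-0.14, SE 0.08, adjusted p = 0.166). The difference of the thapsigargin effects (-0.41, SE 0.14, adjusted p = 0.0189) did not hold when leaving out control thapsigargin replicate 3 (-0.33, adjusted p = 0.0728), knockdown DMSO replicate 2 (-0.34, 0.0541) or knockdown thapsigargin replicate 2 (-0.36, 0.063), and without scaling beyond the total count (-0.25, 0.144). Per kilobase, Slc16a3 made up 11.5% ± 0.848 of the pair in control DMSO, 1.67% ± 0.201 in control thapsigargin, 9.7% ± 0.927 in knockdown DMSO and 2.05% ± 0.146 in knockdown thapsigargin. The pair summed to 38.5 reads per kilobase per M in control DMSO and 77.8 in control thapsigargin, and to 41.5 and 43.4 in knockdown cells.

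**Figure D3:**
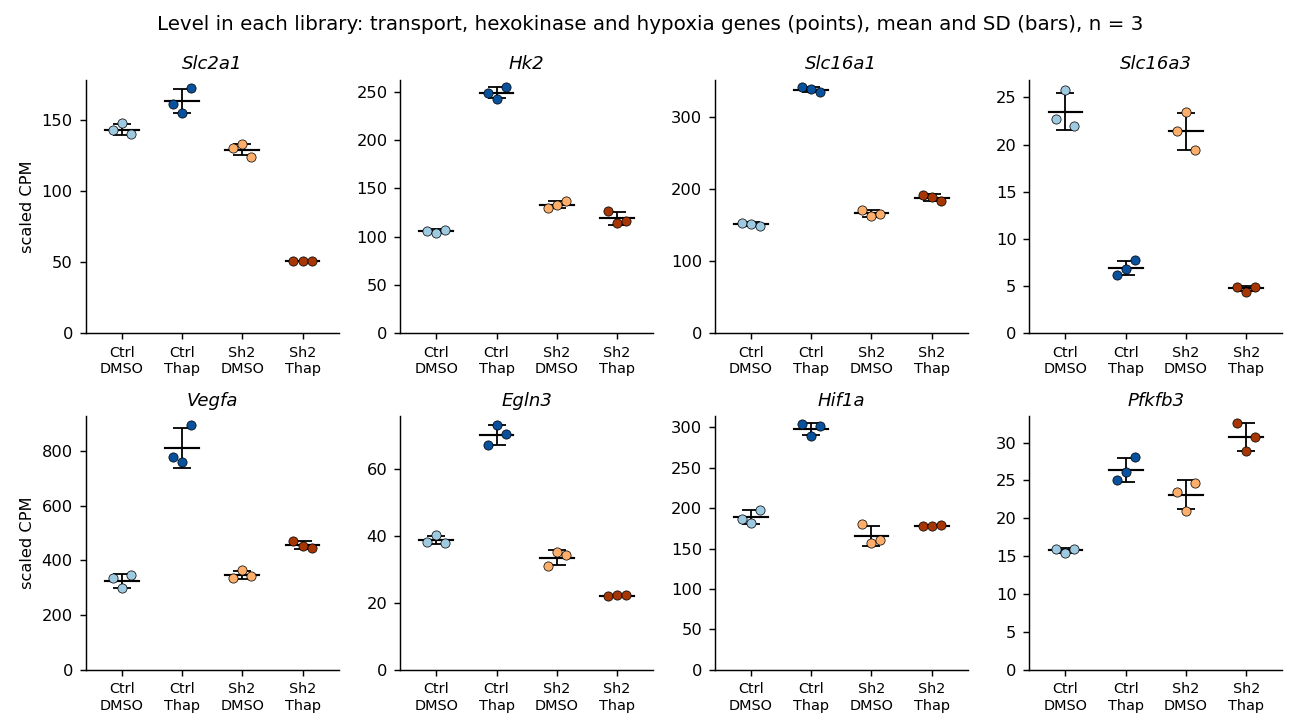
Scaled CPM (linear axes from 0) of single libraries (points) with the mean and SD of each group (bars, n = 3) for Slc2a1, Hk2, both lactate transporters, Vegfa, Egln3, Hif1a and Pfkfb3. The control thapsigargin libraries are the highest for Hk2, Slc16a1, Egln3, Hif1a and Vegfa, and the knockdown thapsigargin libraries stand low for Slc2a1.

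Of the 7 genes of the upper steps, from glucose 6-phosphate to triose phosphate, 6 (85.7%) fell with thapsigargin in either population. Of all genes tested, 37.0% fell in control cells and 34.4% in knockdown cells. The exception, Pfkp, rose in both. The knockdown lowered 6 of the 7 (85.7%) in DMSO and 5 (71.4%) under thapsigargin, where 26.5% and 28.4% of all genes fell. It raised only Tpi1, under thapsigargin. Among the 5, the calls of Gpi1 and Aldoa were lost under alternatives given below. Phosphofructokinase, which commits glucose to glycolysis, has 3 subunit genes, the liver type Pfkl, the muscle type Pfkm and the platelet type Pfkp. Pfkl (ENSMUSG00000020277, chromosome 10, 77986947 to 78010083, minus strand) was at 311, 330.4 and 307 in control DMSO, 186, 184 and 198 in control thapsigargin, 179, 184 and 176 in knockdown DMSO and 96.9, 95.3 and 104 in knockdown thapsigargin (scaled CPM). Its 4 groups did not overlap except for control thapsigargin (184 to 198) and knockdown DMSO (176 to 184), which met. Pfkl fell with thapsigargin in control cells (-0.74, SE 0.04, adjusted p = 3.75e-16) and in knockdown cells (-0.86, SE 0.05, adjusted p = 2.59e-17), and with the knockdown in DMSO (-0.82, SE 0.05, adjusted p = 2.61e-16) and under thapsigargin (-0.94, SE 0.05, adjusted p = 4.44e-18). The difference did not pass (-0.12, SE 0.06, adjusted p = 0.137).

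Pfkm was at 70.6, 74.1 and 70 in control DMSO, 24.3, 26.1 and 24.4 in control thapsigargin, 63.7, 64.7 and 65.6 in knockdown DMSO and 27.3, 24.2 and 27 in knockdown thapsigargin. It had the most negative thapsigargin change of the upper steps in both populations (-1.52 in control and -1.3 in knockdown cells), although in muscle it is the main form. Its fall with the knockdown in DMSO (-0.15, SE 0.05, adjusted p = 0.0196) did not hold when leaving out control DMSO replicate 2 (adjusted p = 0.13) or knockdown DMSO replicate 1 (0.0705). Pfkp was at 109.9, 105 and 110.4 in control DMSO, 144, 135 and 142 in control thapsigargin, 64.2, 69 and 69.4 in knockdown DMSO and 101, 104 and 96.7 in knockdown thapsigargin. Pfkp rose with thapsigargin in control cells (0.37, SE 0.05, adjusted p = 1.11e-08) and in knockdown cells (0.57, SE 0.05, adjusted p = 1.78e-12), and was lower with the knockdown in DMSO (-0.68) and under thapsigargin (-0.48). The platelet form thus went up while the other subunits went down. Per kilobase its share of the phosphofructokinase message was 10.5% ± 0.585 in control DMSO, 22.6% ± 0.709 in control thapsigargin, 9.83% ± 0.338 in knockdown DMSO and 24.9% ± 1.6 in knockdown thapsigargin, while the 3 genes together summed to 76.9, 46.3, 51.3 and 30.1 reads per kilobase per M in these groups. The differences of the thapsigargin effects of Pfkm (0.22) and Pfkp (0.2) did not hold when leaving out single libraries. For Pfkm these were control DMSO replicate 2, control thapsigargin replicates 1 and 3, knockdown DMSO replicate 1 and knockdown thapsigargin replicates 1 and 3 (adjusted p = 0.0676 to 0.121). For Pfkp they were control thapsigargin replicate 2 (0.0636), knockdown DMSO replicate 1 (0.074) and knockdown thapsigargin replicate 2 (0.0512).

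Tpi1 (ENSMUSG00000023456, chromosome 6, 124810586 to 124814296, minus strand) encodes triose phosphate isomerase, which interconverts both products of the split sugar. Tpi1 was at 922, 952 and 876 in control DMSO, 403, 418 and 397 in control thapsigargin, 791, 809 and 735 in knockdown DMSO and 427, 449 and 433 in knockdown thapsigargin (scaled CPM). All 6 thapsigargin libraries lay at 449 or below and all 6 DMSO libraries at 735 or above. Tpi1 fell with thapsigargin less in knockdown cells (-0.84, SE 0.05, adjusted p = 2.6e-17) than in control cells (-1.17, SE 0.05, adjusted p = 1.62e-21), with a difference of 0.34, SE 0.06, adjusted p = 5.94e-05. The knockdown lowered it in DMSO (-0.24, SE 0.04, adjusted p = 3.96e-05). Its small rise with the knockdown under thapsigargin (0.1, SE 0.04, adjusted p = 0.0497) did not hold when leaving out any 1 of 9 libraries (adjusted p = 0.0507 to 0.176). It held when control thapsigargin replicate 2, knockdown DMSO replicate 2 or knockdown DMSO replicate 3 was the one left out.

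Gpi1, for the isomerase that follows hexokinase, averaged 386 ± 22.9 scaled CPM in control DMSO, 251 ± 5.69 in control thapsigargin, 343 ± 16.8 in knockdown DMSO and 231 ± 9.23 in knockdown thapsigargin. Gpi1 fell with thapsigargin by a like amount in control (-0.62) and knockdown cells (-0.57). Its falls with the knockdown are small. In DMSO (-0.17) the call did not hold when leaving out control DMSO replicate 2 (adjusted p = 0.066). Under thapsigargin (-0.12) it did not hold when leaving out control thapsigargin replicate 2 (0.0622) or 3 (0.0814) or knockdown thapsigargin replicate 1 (0.14) or 2 (0.0627), with upper-quartile scaling (0.111) and with no filter on low counts (0.0703). It turned to 0.01 without scaling beyond the total count.

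Aldolase splits the 6-carbon sugar. Aldoa averaged 858 ± 38.4, 659 ± 9.59, 809.8 ± 51.5 and 585 ± 22.7 scaled CPM in control DMSO, control thapsigargin, knockdown DMSO and knockdown thapsigargin. Its fall with thapsigargin was -0.38 in control and -0.47 in knockdown cells, and its fall with the knockdown under thapsigargin (-0.17) did not pass without scaling beyond the total count (-0.04, adjusted p = 0.444). A second identifier carries the same symbol (ENSMUSG00000114515, chromosome 7, 126800790 to 126809108) and lies just upstream. That upstream identifier went the other way, with means of 1.4, 5.87, 1.03 and 1.73 scaled CPM. It rose with thapsigargin in control cells (2.07, SE 0.16, adjusted p = 3.04e-13), and less in knockdown cells (0.74, SE 0.2, adjusted p = 0.00186), with a difference of -1.33. Aldoc, the brain form, was a trace beside Aldoa, at 3.5, 3.81 and 2.37 in control DMSO, 1.16, 1.45 and 1.43 in control thapsigargin, 0.873, 1.21 and 1.01 in knockdown DMSO and 0.353, 0.648 and 0.294 in knockdown thapsigargin. It fell with the knockdown in DMSO (-1.64) and under thapsigargin (-1.67).

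Of the 8 genes of the lower steps, where ATP is made, 6 (75.0%) fell with thapsigargin in both populations, where 37.0% and 34.4% of all genes did. The knockdown raised 4 of the 8 (50.0%), Gapdh, Eno1, Eno3 and Pkm, in both treatments, where 25.0% and 28.5% of all genes rose. It lowered 1 (12.5%) in DMSO and 2 (25.0%) under thapsigargin, against 26.5% and 28.4%. Gapdh (ENSMUSG00000057666, chromosome 6, 125161715 to 125166467, minus strand), for the dehydrogenase that often serves as a reference gene, was at 2187, 2329 and 2132 in control DMSO, 1355, 1400 and 1357 in control thapsigargin, 2504, 2745 and 2326 in knockdown DMSO and 1529, 1667 and 1565 in knockdown thapsigargin (scaled CPM). The thapsigargin libraries lay below all DMSO libraries. Gapdh fell with thapsigargin in control cells (-0.69, SE 0.05, adjusted p = 6.64e-14) and in knockdown cells (-0.67, SE 0.05, adjusted p = 2.31e-13), and rose with the knockdown in DMSO (0.19, SE 0.05, adjusted p = 0.00199) and under thapsigargin (0.21, SE 0.05, adjusted p = 0.000541). Pkm (ENSMUSG00000032294, chromosome 9, 59656368 to 59679375, plus strand), for pyruvate kinase, was at 2050.1, 2159 and 1941 in control DMSO, 1364, 1367 and 1312 in control thapsigargin, 2612, 2812 and 2522 in knockdown DMSO and 1687, 1764 and 1703 in knockdown thapsigargin. Again every thapsigargin library was below every DMSO library. Pkm fell by a like amount in control (-0.6, SE 0.05, adjusted p = 1.07e-13) and knockdown cells (-0.63, SE 0.05, adjusted p = 7.27e-14), and was higher with the knockdown in DMSO (0.37) and under thapsigargin (0.35). Counts per gene do not tell its M1 and M2 splice forms apart.

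Enolase makes phosphoenolpyruvate, and its 3 genes gave 3 patterns. Eno3 (ENSMUSG00000060600, chromosome 11, 70657202 to 70662513, plus strand), the muscle enolase, was at 295, 308 and 288 in control DMSO, 131, 128 and 124 in control thapsigargin, 539, 572 and 511 in knockdown DMSO and 299.8, 324 and 304 in knockdown thapsigargin (scaled CPM). Knockdown libraries were higher than control libraries in each treatment, and knockdown thapsigargin libraries (299.8 to 324) overlapped control DMSO (288 to 308). Eno3 rose with the knockdown in DMSO (0.86, SE 0.05, adjusted p = 1.02e-16) and under thapsigargin (1.27, SE 0.05, adjusted p = 2.59e-21), the largest rise of a member in either comparison. Thapsigargin lowered it in control cells (-1.22, SE 0.05, adjusted p = 2.08e-21) and less in knockdown cells (-0.81, SE 0.05, adjusted p = 1.19e-16), with a difference of 0.41, SE 0.07, adjusted p = 6.22e-06. Per kilobase it made up 37% ± 0.518 of the 3 enolase members in control DMSO and 26.7% ± 0.345 in control thapsigargin. In knockdown cells the share was 48.6% ± 0.234 in DMSO and 44.7% ± 0.277 with thapsigargin. Eno1b, given below, is not in these shares.

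Eno2, the neuronal enolase, was at 33.4, 31.8 and 30.4 in control DMSO, 34, 34.7 and 33.8 in control thapsigargin, 18, 18.5 and 17.7 in knockdown DMSO and 31.4, 26.2 and 35 in knockdown thapsigargin (scaled CPM). The knockdown DMSO libraries stood apart below the rest. Eno2 fell with the knockdown in DMSO (-0.82, SE 0.08, adjusted p = 8.43e-11) and rose with thapsigargin in knockdown cells (0.77, SE 0.08, adjusted p = 1.04e-10). In control cells its change with thapsigargin did not pass (0.1, SE 0.07, adjusted p = 0.197), and the difference was 0.67, SE 0.1, adjusted p = 3.9e-06. Eno1, the ubiquitous form, averaged 1531 ± 86.3, 1046 ± 19.5, 1752 ± 116 and 1149 ± 40 in the groups in the order used above, a fall with thapsigargin of -0.55 in control and -0.61 in knockdown cells. It rose with the knockdown in DMSO (0.19, SE 0.05, adjusted p = 0.000928). Its rise under thapsigargin (0.13) did not hold when leaving out control thapsigargin replicate 3 (adjusted p = 0.0634) or knockdown thapsigargin replicate 2 (0.0918). Eno1b, a near copy of Eno1, gave means of 196, 138, 239 and 161, so the division of reads between both copies is uncertain.

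**Figure D4:**
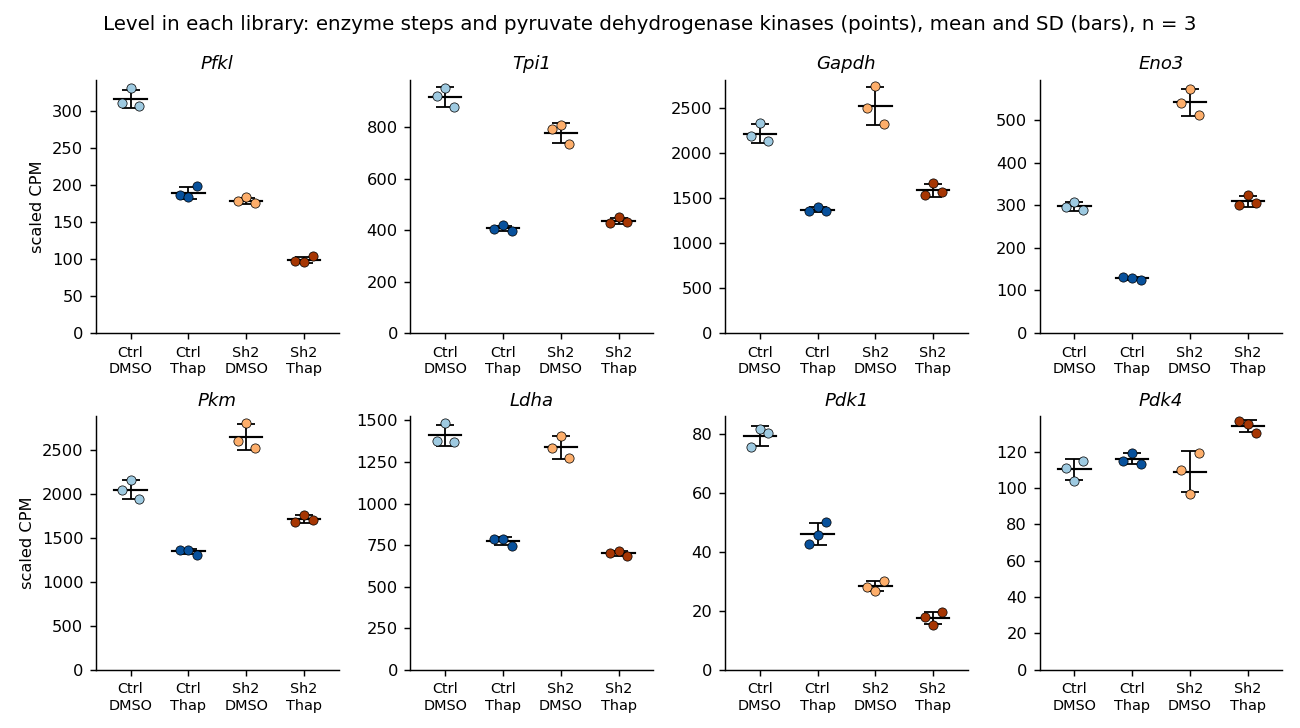
Scaled CPM (linear axes from 0) of single libraries (points) with the mean and SD of each group (bars, n = 3) for 6 enzymes and 2 pyruvate dehydrogenase kinases. Thapsigargin libraries are lower than DMSO libraries of the same cells for all of the 8 but Pdk4, and knockdown libraries are high for Eno3 and low for Pfkl and Pdk1.

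Pgk1, for the first ATP-making step, averaged 1218 ± 49.1 scaled CPM in control DMSO and 897 ± 40.5 in control thapsigargin. In knockdown cells it averaged 1155 ± 48.4 and 797 ± 16. Its fall with thapsigargin was among the smaller ones, -0.44 in control and -0.54 in knockdown cells, and its fall with the knockdown under thapsigargin (-0.17) did not pass without scaling beyond the total count (-0.04, adjusted p = 0.439). Pgam1, the main phosphoglycerate mutase, averaged 401 ± 5.15 and 205 ± 6.18 in control cells and 406 ± 9.47 and 189 ± 9.05 in knockdown cells. It fell with thapsigargin in control (-0.97, SE 0.04, adjusted p = 8.8e-20) and knockdown cells (-1.11, SE 0.04, adjusted p = 6.17e-21). The fall with the knockdown under thapsigargin (-0.12) did not hold when leaving out control thapsigargin replicate 3 (adjusted p = 0.0822) or knockdown thapsigargin replicate 1 (0.0575) or 3 (0.123), with upper-quartile scaling (0.0758) and with no filter (0.0779), and turned to 0.01 without scaling beyond the total count. Pgam2, the muscle mutase, was low, at 2.24, 3.07 and 2.78 in control DMSO, 3.67, 4.25 and 4.02 in control thapsigargin, 2.33, 2.51 and 2.89 in knockdown DMSO and 3.12, 3.11 and 4.23 in knockdown thapsigargin. It rose with thapsigargin in control cells (0.57, SE 0.15, adjusted p = 0.00133). Its rise in knockdown cells (0.44, SE 0.16, adjusted p = 0.0166) moved to 0.36 (adjusted p = 0.0738) on dropping knockdown DMSO replicate 1 and to 0.27 (adjusted p = 0.177) on dropping knockdown thapsigargin replicate 3, and then no longer passed. In control DMSO the members with the most reads per kilobase per M were Pgk1 at 543 ± 21.9, Gapdh at 536 ± 24.6, Ldha at 426 ± 19.1 and Pkm at 409.9 ± 21.7. By this measure Pgk1 and Gapdh did not differ beyond their SD, and nor did Ldha and Pkm. It rests on merged exon lengths, 2244 bases for Pgk1 and 4133 for Gapdh, so the order depends on the annotation.

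Ldha (ENSMUSG00000063229, chromosome 7, 46841475 to 46855627, plus strand), whose lactate dehydrogenase subunit favours making lactate, was at 1378, 1484 and 1372 in control DMSO, 788, 789 and 745 in control thapsigargin, 1331, 1408 and 1271 in knockdown DMSO and 700.4, 716 and 686 in knockdown thapsigargin (scaled CPM). No thapsigargin library reached a DMSO library. Ldha fell with thapsigargin in control cells (-0.87, SE 0.05, adjusted p = 5.71e-18) and in knockdown cells (-0.93, SE 0.05, adjusted p = 1.67e-18), and the difference did not pass (-0.07, SE 0.06, adjusted p = 0.458). With the knockdown it did not pass in DMSO (-0.08, SE 0.04, adjusted p = 0.148), and its fall under thapsigargin (-0.14, SE 0.04, adjusted p = 0.00696) did not hold without scaling beyond the total count. Ldhb, the heart-type subunit, was at 13.6, 16.1 and 15.4 in control DMSO, 8.36, 7.24 and 7.09 in control thapsigargin, 10.9, 9.17 and 8.11 in knockdown DMSO and 5.62, 5.8 and 6.7 in knockdown thapsigargin, and made up 1.46% to 2.2% of the pair per kilobase in the group means. Ldhb fell with thapsigargin in control (-1, SE 0.1, adjusted p = 1.55e-10) and knockdown cells (-0.63, SE 0.11, adjusted p = 8.12e-06), and with the knockdown in DMSO (-0.68, SE 0.1, adjusted p = 8.47e-07). Its fall with the knockdown under thapsigargin (-0.32) did not hold when leaving out control thapsigargin replicate 1 (adjusted p = 0.0928), knockdown thapsigargin replicate 1 (0.0795) or 2 (0.0598), or scaling (0.169).

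The 4 pyruvate dehydrogenase kinases, which shut the entry of pyruvate into the citric acid cycle, did not move as a set. Pdk1 (ENSMUSG00000006494, chromosome 2, 71873224 to 71903858, plus strand), the form known as a hypoxia target, was at 75.3, 81.7 and 80.2 in control DMSO, 42.5, 45.7 and 49.9 in control thapsigargin, 28.1, 26.8 and 30.2 in knockdown DMSO and 17.8, 15.3 and 19.5 in knockdown thapsigargin (scaled CPM). The 4 groups did not overlap. Pdk1 fell with the knockdown in DMSO (-1.48, SE 0.07, adjusted p = 1.26e-17) and under thapsigargin (-1.39, SE 0.07, adjusted p = 9.57e-17). It also fell with thapsigargin in control (-0.78, SE 0.07, adjusted p = 2.86e-12) and in knockdown cells (-0.69, SE 0.08, adjusted p = 1.49e-09), with a difference that did not pass (0.08, SE 0.1, adjusted p = 0.551). Pdk2, a widely expressed form, was at 10.6, 11.2 and 8.9 in control DMSO, 4.41, 3.49 and 3.46 in control thapsigargin, 6.7, 4.95 and 5.47 in knockdown DMSO and 3.85, 2.53 and 4.09 in knockdown thapsigargin. Its control DMSO libraries were above all others. Pdk2 fell with thapsigargin in control cells (-1.45, SE 0.14, adjusted p = 1.5e-10) and less in knockdown cells (-0.7, SE 0.15, adjusted p = 0.000209), and the difference was 0.75, SE 0.21, adjusted p = 0.00552. It fell with the knockdown in DMSO (-0.85, SE 0.13, adjusted p = 4.37e-06) and did not pass under thapsigargin (-0.1, SE 0.16, adjusted p = 0.627).

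Pdk4, the kinase that rises in fasting muscle, was at 111, 104 and 115 in control DMSO, 115, 119 and 113 in control thapsigargin, 109.9, 96.7 and 119 in knockdown DMSO and 137, 135 and 130.3 in knockdown thapsigargin (scaled CPM). The knockdown thapsigargin libraries were the highest, above all others. Pdk4 rose with thapsigargin in knockdown cells (0.3, SE 0.06, adjusted p = 1.77e-05) and with the knockdown under thapsigargin (0.21, SE 0.06, adjusted p = 0.00147), and its change in control cells did not pass (0.07, SE 0.06, adjusted p = 0.258). The difference (0.23, SE 0.08, adjusted p = 0.0203) did not hold when leaving out control DMSO replicate 3 (0.2, adjusted p = 0.0658) or knockdown DMSO replicate 2 (0.15, 0.0854). Pdk3 averaged 25.2 ± 0.932 and 20.3 ± 0.487 in control cells and 25.7 ± 1.39 and 17.9 ± 0.737 in knockdown cells, and fell with thapsigargin in both (-0.31 and -0.53). The fall of Pdk3 with the knockdown under thapsigargin (-0.19) did not hold when leaving out control thapsigargin replicate 2 (adjusted p = 0.0693) or knockdown thapsigargin replicate 1 (0.0713), without scaling (0.488) and with no filter on low counts (0.0622). Per kilobase, Pdk4 made up 57.4% ± 2.2 of the 4 kinases in control DMSO and 78.7% ± 1.49 in knockdown thapsigargin, and Pdk1 18.6% ± 0.895 and 4.64% ± 0.562. The sum of the 4 was 54.6, 48.0, 46.4 and 48.5 reads per kilobase per M in control DMSO, control thapsigargin, knockdown DMSO and knockdown thapsigargin.

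The PFKFB enzymes set the level of fructose 2,6-bisphosphate. Pfkfb3, the form with the strongest kinase activity and a known hypoxia target, was at 16, 15.4 and 16 in control DMSO, 25, 26.1 and 28.1 in control thapsigargin, 23.5, 21 and 24.7 in knockdown DMSO and 32.6, 28.9 and 30.8 in knockdown thapsigargin (scaled CPM). Thapsigargin libraries were above DMSO libraries in both populations. Pfkfb3 rose with thapsigargin in control (0.74, SE 0.07, adjusted p = 4.25e-11) and knockdown cells (0.41, SE 0.07, adjusted p = 2.99e-06), and with the knockdown in DMSO (0.54, SE 0.07, adjusted p = 1.51e-07). Its rise with the knockdown under thapsigargin (0.22) did not hold when leaving out knockdown thapsigargin replicate 1 (0.17, adjusted p = 0.0514). The difference (-0.32, SE 0.1, adjusted p = 0.0101) did not hold without scaling beyond the total count (-0.17, adjusted p = 0.198). Pfkfb4 went the opposite way with thapsigargin, from 21.3, 22.1 and 19.3 to 8.39, 8.07 and 8.49 in control cells and from 24.4, 26.6 and 25.2 to 12.6, 13.1 and 11.4 in knockdown cells. Its falls were -1.33, SE 0.08, adjusted p = 1.99e-16 and -1.04, SE 0.08, adjusted p = 5.89e-14, and the knockdown raised it in DMSO (0.28) and under thapsigargin (0.57). Per kilobase, Pfkfb3 was 28% ± 1.61 of the 3 genes in control DMSO and 53.7% ± 1.7 in control thapsigargin, and 33.6% ± 1.95 and 51.5% ± 1.45 in knockdown cells.

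Pfkfb2, the heart form, was at 9.44, 7.25 and 7.49 in control DMSO, 9.68, 9.41 and 9.17 in control thapsigargin, 6.47, 4.51 and 6.8 in knockdown DMSO and 9.38, 8.4 and 10.3 in knockdown thapsigargin (scaled CPM). Pfkfb2 rose with thapsigargin in knockdown cells (0.66, SE 0.12, adjusted p = 2.41e-05) and did not pass in control cells (0.22, SE 0.12, adjusted p = 0.0851). Its fall with the knockdown in DMSO (-0.44) did not hold when leaving out control DMSO replicate 1 (adjusted p = 0.054) or knockdown DMSO replicate 2 (0.0565). Of its exon length 19.5% is shared with other genes, which makes its read count uncertain. The differences of the effects of Pfkfb2 (0.44) and Pfkfb4 (0.29) were lost with DESeq2 (adjusted p = 0.062 and 0.0588). Pfkfb2 also lost it without control DMSO replicate 1 (0.187), any 1 control thapsigargin library (0.0586, 0.0737 and 0.0779), knockdown DMSO replicate 2 (0.189) or knockdown thapsigargin replicates 1 (0.0712) or 3 (0.136). Pfkfb4 lost it without control DMSO replicates 1 or 2, control thapsigargin replicates 1 or 2, knockdown DMSO replicates 1 or 3 or knockdown thapsigargin replicates 1 or 2 (0.0579 to 0.138).

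**Figure D5:**
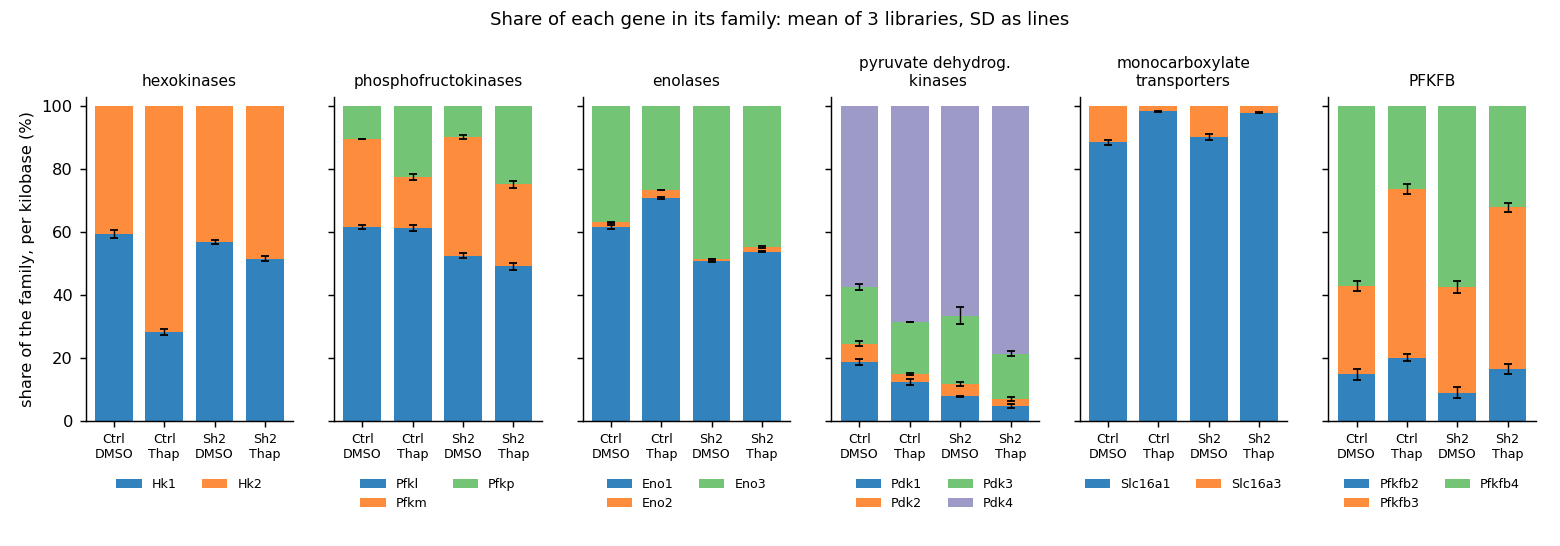
Share of each gene in the reads per kilobase of its family (percent, stacked to 100) for 6 families, as the mean of 3 libraries in each of the 4 groups, with a line at the top of a segment for the SD of its share. The share of Hk2 is largest in control thapsigargin, and those of Pfkp and Pfkfb3 are larger with thapsigargin in both cell populations.

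Hif1a and 4 genes known as hypoxia targets closed the list. Hif1a (ENSMUSG00000021109, chromosome 12, 73901375 to 73947530, plus strand) encodes the oxygen-regulated subunit of HIF-1, whose protein amount is set mainly by degradation, which mRNA counts do not measure. Hif1a was at 187, 181 and 198 in control DMSO, 304, 289 and 301 in control thapsigargin, 179.9, 157 and 160.2 in knockdown DMSO and 178, 178 and 179 in knockdown thapsigargin (scaled CPM). Control thapsigargin libraries lay at 289 or above and all others at 198 or below. Hif1a rose with thapsigargin in control cells (0.66, SE 0.05, adjusted p = 2.75e-14), while the change in knockdown cells did not pass (0.1, SE 0.05, adjusted p = 0.0577) and the difference was -0.56, SE 0.07, adjusted p = 4.21e-08. That change in knockdown cells passed under 9 of the 22 alternatives run. The knockdown lowered Hif1a in DMSO (-0.19, SE 0.05, adjusted p = 0.00142) and under thapsigargin (-0.75, SE 0.05, adjusted p = 4.15e-15).

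Egln3 (ENSMUSG00000035105, chromosome 12, 54178981 to 54203860, minus strand), for a prolyl hydroxylase that is itself a hypoxia target, was at 38.3, 40.3 and 37.8 in control DMSO, 67.1, 73.2 and 70.4 in control thapsigargin, 31.1, 35.1 and 34.4 in knockdown DMSO and 22.1, 22.3 and 22.3 in knockdown thapsigargin (scaled CPM). The groups formed 3 levels, with control thapsigargin highest, the DMSO groups between and knockdown thapsigargin lowest, and none of the 4 overlapped. Egln3 rose with thapsigargin in control cells (0.86, SE 0.06, adjusted p = 1.82e-15) and fell in knockdown cells (-0.59, SE 0.06, adjusted p = 2.24e-10). The difference was -1.45, SE 0.08, adjusted p = 1.67e-15. The knockdown lowered it in DMSO (-0.21, SE 0.06, adjusted p = 0.00295) and under thapsigargin (-1.66, SE 0.06, adjusted p = 7.37e-22). Egln1, the main oxygen sensor of the family, fell with thapsigargin in both populations, with means of 114 ± 2.6 and 62.9 ± 3.92 in control cells (-0.86) and 95.6 ± 8.01 and 56.3 ± 1.18 in knockdown cells (-0.76). It fell with the knockdown in DMSO (-0.25, SE 0.05, adjusted p = 0.000153). Its fall under thapsigargin (-0.16) did not hold when leaving out control thapsigargin replicate 3 (-0.11, adjusted p = 0.106) or knockdown thapsigargin replicate 3 (-0.14, 0.059) and without scaling (-0.03, 0.689). Egln3 made up 60.1% ± 1.56 of the pair per kilobase in control thapsigargin and 31.5% ± 0.906, 32.2% ± 2.5 and 34.8% ± 0.583 in control DMSO, knockdown DMSO and knockdown thapsigargin.

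Vegfa (ENSMUSG00000023951, chromosome 17, 46016993 to 46032369, minus strand), the growth factor of blood vessels, is also known as a target of ATF4. Vegfa was at 334, 297 and 346 in control DMSO, 776, 761 and 896 in control thapsigargin, 335, 364 and 341 in knockdown DMSO and 471, 452 and 446 in knockdown thapsigargin (scaled CPM). Its DMSO libraries overlapped between the populations, knockdown thapsigargin lay above them and control thapsigargin was far higher. Vegfa rose with thapsigargin in control cells (1.31, SE 0.06, adjusted p = 1.81e-17) and less in knockdown cells (0.4, SE 0.06, adjusted p = 7.42e-07), with a difference of -0.92, SE 0.08, adjusted p = 6.55e-10. The knockdown lowered it under thapsigargin (-0.83, SE 0.06, adjusted p = 1.02e-12) and did not pass in DMSO (0.09, SE 0.06, adjusted p = 0.21). Bnip3, for a mitophagy receptor, was at 18.9, 14.2 and 19.5 in control DMSO, 10.2, 10.1 and 12.8 in control thapsigargin, 7.47, 9.17 and 8.08 in knockdown DMSO and 4.65, 6.03 and 6.94 in knockdown thapsigargin. The knockdown lowered Bnip3 in DMSO (-1.09, SE 0.13, adjusted p = 7.37e-07) and under thapsigargin (-0.91, SE 0.14, adjusted p = 1.6e-05), and thapsigargin lowered it in control (-0.67, SE 0.13, adjusted p = 8.11e-05) and knockdown cells (-0.49, SE 0.15, adjusted p = 0.00693). Its pattern was thus unlike those of Egln3 and Vegfa. Of the exon length of Bnip3 22.3% is shared with another gene model, which makes its read count uncertain.

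By role, the 19 enzymes and the 5 genes of the hypoxia group had medians of opposite sign with thapsigargin in control cells. In knockdown cells their medians had the same sign. The hypoxia median in control cells was the value of Hif1a, the factor itself. The 4 targets split there, with Egln3 (0.86) and Vegfa (1.31) rising and Egln1 (-0.86) and Bnip3 (-0.67) falling. The 27 further hypoxia targets described below had a median of -0.15 in control cells, the sign of the enzymes. Of the 19 enzymes from hexokinase to lactate dehydrogenase, 15 fell and 3 rose with thapsigargin in control cells, and 16 fell and 3 rose in knockdown cells, with medians of -0.67 and -0.63. The shares that fell, 78.9% and 84.2%, stand beside 37.0% and 34.4% of all genes. The difference was negative in 1 of the 19, Hk2, and positive in 6 (31.6%), where 17.7% of all genes went either way. Of the hypoxia factor and its 4 targets, 3 rose and 2 fell in control cells, where 37.7% and 37.0% of all genes did, and 1 rose and 3 fell in knockdown cells, where 35.4% and 34.4% did. Their medians were 0.66 and -0.49, and the difference was negative in 3 of 5. Both lactate transporters and 1 of 2 glucose transporters also had a negative difference. With the knockdown under thapsigargin all 5 genes of the hypoxia group and both lactate transporters fell, where 28.4% of all genes did. Of the 19 enzymes 6 rose (31.6%), near the 28.5% of all genes, and 10 fell (52.6%). The groups are small and were described by their counts alone.

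Another 70 genes of glucose handling and hypoxia were counted, of which 60 passed the filter. In control cells 24 of the 60 (40.0%) rose with thapsigargin, near the 37.7% of all genes tested, and 28 (46.7%) fell, against 37.0%. In knockdown cells 20 (33.3%) rose, near 35.4%, and 28 (46.7%) fell, against 34.4%. The knockdown raised 15 (25.0%) in DMSO, the same share as of all genes, and lowered 28 (46.7%), against 26.5%. Under thapsigargin it raised 10 (16.7%), against 28.5%, and lowered 31 (51.7%), against 28.4%. The difference was positive in 9 (15.0%) and negative in 18 (30.0%), against 17.7% each way. Medians were -0.02 and -0.12 for thapsigargin in control and knockdown cells, and -0.19 and -0.29 for the knockdown in DMSO and under thapsigargin. Among 27 further hypoxia targets tested the knockdown lowered 18 (66.7%) in either treatment, against 26.5% and 28.4% of all genes. It raised 6 of them (22.2%) in DMSO, near 25.0%, and 3 (11.1%) under thapsigargin, against 28.5%. With thapsigargin 13 of the 27 (48.1%) rose and 14 (51.9%) fell in control cells, against 37.7% and 37.0%, with a median of -0.15. In knockdown cells 11 (40.7%) rose and 13 (48.1%) fell, against 35.4% and 34.4%, with a median of -0.37. The genes named next were ranked only among those with a mean of at least 5 CPM in a group compared, and rarer ones reached larger changes in some comparisons. Ero1l, an oxidase of the endoplasmic reticulum that is a target of both HIF-1 and the ATF4 response, averaged 77.6, 653, 74.3 and 134 scaled CPM in the order of groups above, with a difference of -2.22, SE 0.07, adjusted p = 2.28e-21. Ddit4, an inhibitor of mTOR signalling that is also driven by ATF4, had a difference of -1.49, and Hmox1, for haem oxygenase, one of -2. These had the most negative differences among the genes so ranked. Zfp395 (0.94), Galm (0.7), for an enzyme that interconverts forms of galactose and glucose, and Mxi1 (0.66), for an antagonist of Myc, had the most positive ones of those ranked. The largest rises with thapsigargin in that ranking were Hmox1 (3.6), the glucose transporter gene Slc2a6 (3.51) and Ero1l (3.07) in control cells and Slc2a6 (3.88), Ndrg1 (2.16) and Stc2 (1.92) in knockdown cells. Ndrg1 and Stc2 are known ATF4 targets too. The largest falls in it were Zfp395 (-1.72), Lox (-1.19), a collagen crosslinker, and Narf (-1.19) in control cells, and Narf (-1.77), Ak4 (-0.99), a mitochondrial adenylate kinase, and Lox (-0.98) in knockdown cells. With the knockdown Hmox1 (1.4) and the transferrin receptor gene Tfrc (0.86) were among the largest rises in DMSO. The inositol transporter gene Slc2a13 (-1.12), Ak4 (-1.05) and Ndrg1 (-1.01) fell most there of the genes ranked. Under thapsigargin Galm (1.52) and Bpgm (0.7), for the mutase of the bisphosphoglycerate by-pass, were among the largest rises, and Ero1l (-2.28), Ddit4 (-1.8) and Ak4 (-1.75) fell most by the same ranking.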

How the data were processed

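The deposited values are raw read counts per gene in 12 libraries, 3 in each of 4 groups. Per the submitters' processing notes, Trim Galore, STAR 2.5.3a, bedtools 2.31.0, DESeq2 and the builds mm10 and hg38 were used. The sources used here do not name the counter, annotation release or strand, which leaves overlapping, antisense and near-identical genes uncertain. Positions and merged exon lengths came from GENCODE vM21 (GRCm38), which holds 53706 of the 53801 identifiers. Entries that name no gene held 13.32% to 14.61% of reads and were left out.

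Tests used edgeR 4.0.16 (R 4.3.3) with TMM scaling, filterByExpr and robust quasi-likelihood fits to all 12 libraries (residual degrees of freedom 8, biological coefficient of variation 4.67%). P-values were adjusted by Benjamini-Hochberg over 15828 genes. SEs are approximate, computed as the size of the log2 change over the root of F. The scripts were tested on simulated data. Depth in reads covers counting error only. All 35 members were named, with Cebpg and, among the further genes with at least 5 CPM in a group compared, the 3 largest changes in each direction, of which 1 gene is not reported here. The members, lists and tests were chosen with earlier results of these data known. The alternatives were other scalings, filters, thresholds and designs, DESeq2 1.42.0, limma-voom (limma 3.58.1), a replicate block and leaving out each library. Figures used matplotlib 3.10.9.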

Additional observations from a re-analysis of the deposited data

Results flagged for a closer look

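The 18 members below had thapsigargin effects that differed between knockdown and control cells by the test of the difference itself (edgeR's quasi-likelihood test, adjusted p under 0.05 over 15828 genes), where 35.4% of all genes did. Values are log2, knockdown minus control effect. The negative ones were Slc2a1 -1.53, Egln3 -1.45, Hk2 -1.41, Slc16a1 -0.99, Vegfa -0.92, Hif1a -0.56, Slc16a3 -0.41 and Pfkfb3 -0.32. The positive ones were Pdk2 0.75, Eno2 0.67, Pfkfb2 0.44, Eno3 0.41, Tpi1 0.34, Pfkfb4 0.29, Pdk4 0.23, Pfkm 0.22, Pfkp 0.2 and Hk1 0.19. Of the 18, Slc2a1, Hk2 and Egln3 went in opposite directions in the 2 populations, with calls in both. The small fall of Hk2 in knockdown cells (-0.17) was not called without scaling beyond the total count (-0.05, adjusted p = 0.34). The call was lost under at least 1 alternative for Hk1, Pfkm, Pfkp, Pdk4, Slc16a3, Pfkfb2, Pfkfb3 and Pfkfb4. Groups of 3 libraries are too small for a test of single libraries that stand apart.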

How the results depend on the processing

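Of 138 member changes called over the 5 comparisons, 113 kept their call and direction under every alternative that gave them a value. Among these are the calls of Slc2a3 and Aldoc with the knockdown in DMSO, which had no value under at least 1 alternative. The other 25 lost their call under at least 1. Only 2 reversed, Gpi1 and Pgam1 with the knockdown under thapsigargin, each at 0.01 without scaling beyond the total count. Of 37 changes not called, 16 gained a call under at least 1 alternative. Without that scaling 12 members fell with the knockdown under thapsigargin instead of 20, and the cause was not tested. At an adjusted p under 0.01 the difference of the effects was positive in 4 members instead of 10. Leaving out each library in turn gave 8 to 9 members that rose and 15 to 18 that fell with the knockdown in DMSO, 7 to 9 and 16 to 20 under thapsigargin, 9 to 10 and 23 with thapsigargin in control cells, 7 to 8 and 25 in knockdown cells, and 6 to 9 and 7 to 10 for the difference. The labels do not say whether the replicate numbers pair the libraries. The correlation of same-numbered deviations ran from -0.03 to 0.08, and 0 of 18 pairs passed 0.1. Counting error lowers such correlations, so they cannot settle whether same-numbered libraries shared a day or culture. A fit with the replicate number as a block gave 9 and 17 members with the knockdown in DMSO, 9 and 20 under thapsigargin, 10 and 23 with thapsigargin in control cells, 9 and 25 in knockdown cells, and 10 and 8 for the difference. Over all genes that fit with the block called 8280, 9110, 11855, 11117 and 5771 in these comparisons. The main fit, without it, called 8154, 9010, 11828, 11051 and 5598. Among members the block changed 2 calls, both gained, Pfkfb2 with thapsigargin in control cells (0.24, adjusted p = 0.0416) and Hif1a in knockdown cells (0.1, adjusted p = 0.0404). The fit to only the groups compared gives no value for the difference, which needs all 4. Depth limits Slc2a3 and Aldoc, whose changes rest on few reads.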
